A study of Drosophila melanogaster with 26 samples.

Results

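The secreted serine proteases and lysozymes of the *Drosophila* midgut were followed in late L3 larvae, the last larval stage, that lacked dHIFα, dERR or both, in normoxia and in hypoxia. The members are the genes with a probe set of their own whose symbol begins with *Jon* and a digit, ends in *Try*, or is *Lys* with 1 capital letter. This gave 25 genes of the 11982 with a probe set listed for a single gene: 13 Jonah proteases, 9 trypsins and 3 lysozymes. Each is represented by 1 probe set. The other 9 genes with such names in RefSeq (*Jon99Cii*, *Jon99Ciii*, *Jon99Fii*, *gammaTry*, *deltaTry*, *LysB*, *LysC*, *LysD* and *LysE*) were not analysed here. The rule uses gene names and no measured value. The arrays were made from whole larvae, so the name midgut comes from what is known of these genes and cannot be checked from these values.

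Trypsins and the Jonah proteases, which resemble chymotrypsin, are made by cells of the midgut and secreted as inactive precursors. Once cut, they break dietary proteins into peptides, trypsins after basic residues. Lysozymes cleave the peptidoglycan of bacterial walls. Most *Drosophila* lysozyme genes are expressed in the digestive tract, where the enzymes are thought to digest bacteria taken in with the food. In the last hours before pupariation, the larva stops feeding and empties its gut.

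The question of the study was how dHIFα, the oxygen-sensitive subunit of the hypoxia-inducible factor that is encoded by *sima*, and the nuclear receptor dERR contribute to the response to low oxygen. Larvae in which part of the blue food had left the gut, 10 to 4 h before pupariation, spent 6 h at 25°C either in normoxia or at 4% oxygen. The control was *w1118*, with 3 arrays in normoxia and 5 in hypoxia. The mutants, with 3 arrays for each oxygen level, were *sima* (homozygous for *sima07607*), *ERR* (*dERR1*/*dERR2*) and the *double* mutant (*sima07607*,*dERR1*/*sima07607*,*dERR2*), the last made by recombination. Each replicate pooled at least 10 larvae. The mutations had been kept over TM3, a balancer marked with GFP, and *w1118* larvae had *w1118* parents. Of the 25 members, 10 lie on the left arm and 2 on the right arm of the chromosome that TM3 balances. They are the 3 lysozymes and the Jonah genes with names in *Jon65*, *Jon66*, *Jon74* and *Jon99*. An effect of an allele and one of the chromosome that carries it cannot be told apart in this design. In whole larvae, fewer midgut cells and less RNA per cell cannot be told apart either.

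RMA intensities were compared on the log2 scale, so a difference of 1 is a 2-fold change. A gene was called where its adjusted p was under 0.01 and it differed by 1.5-fold or more (limma, Benjamini-Hochberg over 18769 probe sets). The median log2 level of all probe sets was 5.39. Members varied more between replicates than most transcripts, with a median SD of 0.408 against 0.187 for all probe sets. Protease deviations from group means also went together, with median correlations of 0.55 over Jonah pairs and 0.72 over trypsin pairs. Signs shared by a protease family are therefore not independent. Pairs of lysozymes had a median of -0.19. *LysX* had negative correlations with the trypsins, from -0.77 (*zetaTry*) to -0.53 (*thetaTry*), apart from 0.76 with *alphaTry*. *LysX* and most trypsins thus moved in opposite directions between replicates of a group as well. The *sima* probe set read 4.97 to 6.15 in the *sima* and *double* groups and 7.62 to 8.36 in the others. The *ERR* probe set was dim in every group, with means of 4.35 to 5.23, and is a weak check on its mutation. *w1118* hypoxia replicate 1 stood apart from the other 4 arrays of its group for some lists of genes. Its mean over 8 muscle transcripts was 10.87 against 9.30 to 9.49, its mean over 9 midgut epithelium transcripts was 7.76 against 6.75 to 7.26, and its mean over 15 transcripts of the ecdysone response was 6.07 against 6.63 to 7.39. Over all probe sets the group was uneven in other ways too. The mean absolute log2 difference was 0.355 to 0.453 between replicate 1 and the others, 0.394 to 0.454 between either of replicates 2 and 3 and either of replicates 4 and 5, and 0.162 and 0.250 within these pairs. Calls of members that changed without replicate 1 are given with the result. Calls of genes of the other lists were not checked without it.

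*LysX* had the widest range of group means of the 25 members, 6.28 on the log2 scale. It was high in *w1118*, higher in *sima*, and low in *ERR* and in the *double* mutant. In normoxia its log2 level was 11.48, 11.36 and 10.96 in *w1118*, 12.31, 12.72 and 12.65 in *sima*, 5.83, 6.12 and 7.08 in *ERR*, and 7.32, 6.94 and 7.25 in the *double* mutant. In hypoxia it was 8.87, 11.46, 10.96, 11.03 and 10.81 in *w1118*, 12.37, 12.74 and 12.24 in *sima*, 5.74, 6.81 and 6.29 in *ERR*, and 6.17, 7.78 and 6.38 in the *double* mutant. Every array of either *dERR* genotype was below every array of the other genotypes. Against *w1118*, *LysX* was lower in *ERR* by a log2 difference of -4.92 in normoxia (SE 0.49, 30.3-fold, adjusted p = 4.53e-06 by limma), while the hypoxic difference was -4.35 (SE 0.44, adjusted p = 2.25e-06), or -4.79 without *w1118* replicate 1 (SE 0.33). In the *double* mutant the difference was -4.10 in normoxia (SE 0.49, adjusted p = 3.79e-05) and -3.85 in hypoxia (SE 0.44, adjusted p = 4.80e-06). A fit of the 2 compared groups alone raised the last adjusted p to 0.0123.

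In *sima* mutants *LysX* moved the other way. It was higher than in *w1118* by 1.82 in hypoxia (SE 0.44, adjusted p = 0.00898) and by 1.29 in normoxia (SE 0.49, adjusted p = 0.132), where the difference did not pass the test. In both conditions every *sima* array was above every *w1118* array. Part of the hypoxic difference came from *w1118* hypoxia replicate 1, without which it was 1.38 (SE 0.33, adjusted p = 0.00675). The call was lost with arrays centred on their median (1.83, adjusted p = 0.0117), by SAM (q = 0.0120) and when only the 2 groups were fitted (adjusted p = 0.0940). It also missed the threshold when any 1 of *w1118* hypoxia replicates 3, 4 and 5 or of the 3 *sima* hypoxia arrays was left out (adjusted p from 0.0111 to 0.0453). Oxygen itself did not change *LysX* at the threshold in *w1118* (-0.64, SE 0.44, adjusted p = 0.338), and without replicate 1 the change was -0.20.

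**Figure D1:**
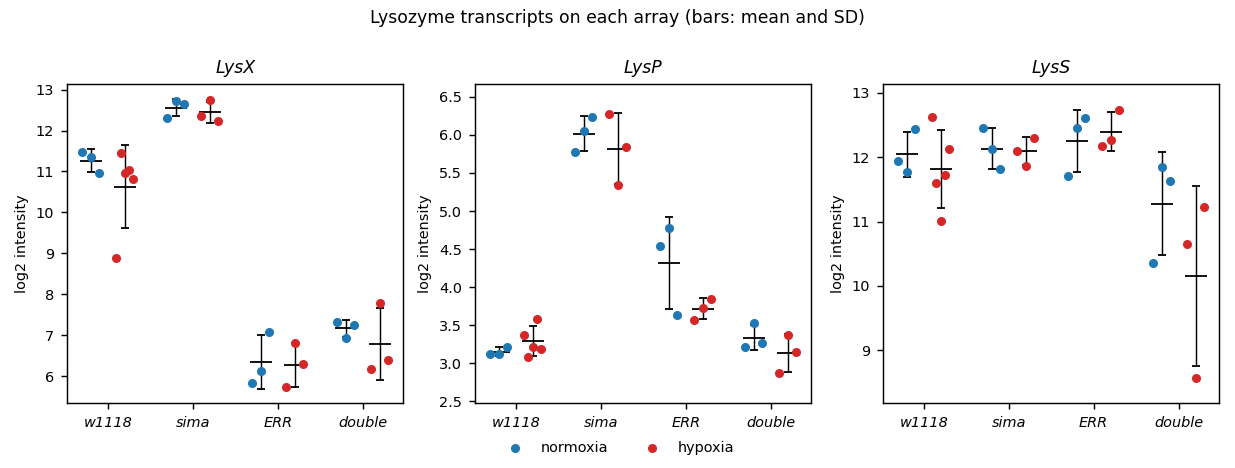
Log2 intensity of *LysX*, *LysP* and *LysS* on each of the 26 arrays, by genotype and oxygen level; points are arrays, and bars give the mean and SD of a group. *LysX* lies between 5.74 and 7.78 on the arrays of *ERR* and of the *double* mutant, and at 8.87 or above on all others, and *LysP* is at 5.35 or above only in *sima*.

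*LysP*, whose product is best known from the adult salivary gland, was near the bottom of the range of the array in *w1118* and was raised in *sima*. In normoxia its log2 level was 3.13, 3.12 and 3.22 in *w1118*, 5.77, 6.04 and 6.23 in *sima*, 4.54, 4.77 and 3.64 in *ERR*, and 3.22, 3.52 and 3.26 in the *double* mutant. In hypoxia it was 3.38, 3.08, 3.22, 3.58 and 3.18 in *w1118*, 6.27, 5.35 and 5.84 in *sima*, 3.57, 3.73 and 3.85 in *ERR*, and 2.87, 3.38 and 3.14 in the *double* mutant. Every *sima* array was above every array of the other genotypes. In *sima*, *LysP* exceeded the *w1118* level by 2.86 in normoxia (SE 0.24, 7.28-fold, adjusted p = 9.96e-08) and 2.53 in hypoxia (SE 0.21, 5.78-fold, adjusted p = 4.19e-08). *LysP* was also higher in *ERR* than in *w1118* in normoxia, by 1.17 (SE 0.24, adjusted p = 0.00471), and by 0.43 in hypoxia, where it did not pass (adjusted p = 0.167). The normoxic call was lost without any 1 of the *w1118* arrays, without *ERR* replicate 1 and without *ERR* replicate 2 (adjusted p from 0.0165 to 0.0495). The files hold no detection calls, so how much of the signal in *w1118* is background was not measured.

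*LysS*, which is expressed in the gastric caeca of the larva, showed no difference that passed the test. Its log2 level in normoxia was 11.93, 11.77 and 12.44 in *w1118*, 12.46, 12.12 and 11.82 in *sima*, 11.70, 12.45 and 12.60 in *ERR*, and 10.36, 11.85 and 11.63 in the *double* mutant. In hypoxia it was 12.63, 11.60, 11.00, 11.72 and 12.12 in *w1118*, 12.09, 11.87 and 12.30 in *sima*, 12.18, 12.26 and 12.74 in *ERR*, and 10.65, 8.58 and 11.23 in the *double* mutant. The lowest array was *double* hypoxia replicate 2, and the *double* mutant in hypoxia had the lowest group mean, 10.15 against 11.81 in *w1118* (-1.66, SE 0.45, adjusted p = 0.0150).

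The genes that lie around the lysozymes were compared in the same fit. They were the 5 measured genes on each side of the span from *LysX* to *LysS* in RefSeq order and the 4 within it, 14 in all. Between *ERR* and *w1118*, no neighbour was lower at the threshold in normoxia or in hypoxia, and the lowest values were -1.21 and -1.43. *CG9205* was higher in both conditions (1.15 and 0.62), and *CG33966* in hypoxia (1.44). Between *sima* and *w1118*, *CG9205* was higher in normoxia (1.21) and in hypoxia (0.94), while *meep* (-1.35) and *CG9192* (-2.17) were lower in hypoxia. Against *w1118*, *CG9205* was higher in the *double* mutant in both conditions (1.02 and 0.60), *Aplip1*, which lies between the lysozyme genes, was lower in normoxia (-0.75) and *meep* in hypoxia (-1.29). *Aplip1* was also lower than in *sima* in normoxia (-0.95) and in hypoxia (-0.66). Of 6 other genes of the lysozyme type, *CG16799* (0.92, SE 0.14, adjusted p = 2.14e-04) and *CG16756* (0.89, SE 0.21, adjusted p = 0.00599) were higher in *ERR* than in *w1118* in hypoxia, and 0 were lower. *LysX* and *LysP* are members of a family with near-identical copies, and whether RNA of the copies not analysed here adds to their signals was not tested.

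Many digestive proteases were higher in *ERR* mutants than in *w1118* in hypoxia. There 13 of the 25 members were higher than in *w1118* and 1, *LysX*, was lower, where 2.4% of all probe sets were higher and 3.77% lower. The 13 were 7 of the 9 trypsins and 6 of the 13 Jonah proteases. All 9 trypsins and 12 of the 13 Jonah proteases had a positive difference, with medians of 1.41 and 1.19 against 0.01 for all probe sets. Without *w1118* hypoxia replicate 1, 15 members were higher and 1 lower, and the medians were 1.62 for the trypsins and 1.30 for the Jonah genes. The count of higher and lower calls together fell from 14 to 9 without *w1118* hypoxia replicate 2, 8 without replicate 3, 9 without replicate 4, 8 without *ERR* hypoxia replicate 1, 9 without replicate 2 and 7 without replicate 3. It was 6 when only the 2 groups were fitted.

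**Figure D2:**
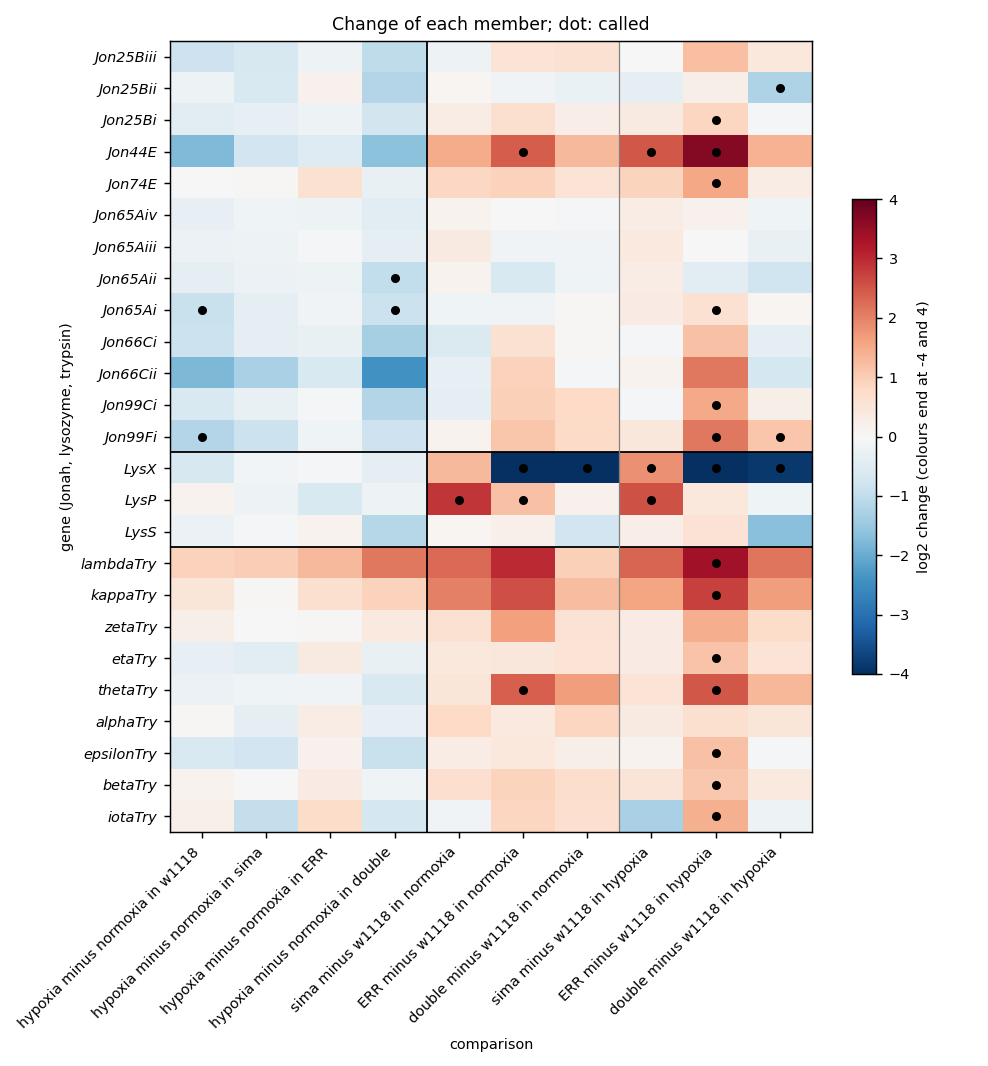
Heat map of the log2 change of each of the 25 members (rows, grouped as Jonah proteases, lysozymes and trypsins) in the 4 comparisons of hypoxia with normoxia and the 6 comparisons of a mutant with *w1118* (columns); red is higher, blue lower, and a dot marks a call. The column of *ERR* against *w1118* in hypoxia holds 14 dots, the most of any, and the Jonah rows are blue under hypoxia in *w1118* and in the *double* mutant.

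*Jon44E* and *Jon99Fi*, both Jonah proteases, had the smallest p values among the genes that were higher in *ERR*. *Jon44E* read 8.17, 7.54, 6.53, 6.85 and 7.74 in hypoxic *w1118*, 10.01, 9.86 and 9.68 in *sima*, 11.55, 10.43 and 11.16 in *ERR*, and 7.66, 9.04 and 9.59 in the *double* mutant. All *ERR* and *sima* arrays were above all *w1118* arrays, while those of the *double* mutant overlapped with *w1118*. The difference from *w1118* was 3.68 in *ERR* (SE 0.46, 12.8-fold, adjusted p = 2.49e-05) and 2.49 in *sima* (SE 0.46, 5.60-fold, adjusted p = 9.60e-04). In normoxia *Jon44E* read 9.97, 8.18 and 9.21 in *w1118*, 11.59, 10.01 and 10.20 in *sima*, 11.47, 11.46 and 11.73 in *ERR*, and 9.94, 10.87 and 10.42 in the *double* mutant. The normoxic difference was 2.43 in *ERR* (SE 0.51, adjusted p = 0.00618) and 1.48 in *sima* (SE 0.51, adjusted p = 0.103), so only the former passed.

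*Jon99Fi* in hypoxia read 10.93, 10.91, 10.50, 11.48 and 11.88 in *w1118*, 11.61, 11.31 and 11.87 in *sima*, 13.50, 13.06 and 13.18 in *ERR*, and 12.10, 12.21 and 12.49 in the *double* mutant. The *ERR* and *double* arrays did not overlap with *w1118*. Its difference from *w1118* was 2.10 in *ERR* (SE 0.25, 4.30-fold, adjusted p = 1.38e-05) and 1.12 in the *double* mutant (SE 0.25, adjusted p = 0.00380). In normoxia it read 12.47, 11.85 and 12.66 in *w1118*, 12.81, 12.43 and 12.15 in *sima*, 13.41, 13.42 and 13.44 in *ERR*, and 12.73, 13.37 and 13.19 in the *double* mutant. The other Jonah genes that were higher in hypoxic *ERR* were *Jon74E* (1.55, SE 0.28), *Jon99Ci* (1.51, SE 0.35), *Jon25Bi* (0.86, SE 0.21) and *Jon65Ai* (0.61, SE 0.14). Other Jonah genes did not pass. *Jon66Cii* (2.11, adjusted p = 0.0153), *Jon25Biii* (1.19, adjusted p = 0.0250) and *Jon66Ci* (1.19, adjusted p = 0.0437) had differences above 1, and *Jon65Aii* (-0.45), *Jon65Aiii* (0.03), *Jon65Aiv* (0.16) and *Jon25Bii* (0.23) smaller ones. Without *w1118* hypoxia replicate 1, *Jon66Cii* (2.31, adjusted p = 0.00882) and *Jon25Biii* (1.45, adjusted p = 0.00348) passed and *Jon65Ai* did not (0.54, adjusted p = 0.0109). With centred arrays *Jon25Bi* did not pass (0.84, adjusted p = 0.0167).

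Among the trypsins, *lambdaTry* (3.35, SE 0.79, adjusted p = 0.00606), *kappaTry* (2.72, SE 0.56, adjusted p = 0.00236) and *thetaTry* (2.49, SE 0.44, adjusted p = 6.39e-04) had the largest differences between *ERR* and *w1118* in hypoxia. *iotaTry* (1.41), *epsilonTry* (1.18), *etaTry* (1.15) and *betaTry* (1.07) were also higher. *zetaTry* (1.45, adjusted p = 0.0627) and *alphaTry* (0.65, adjusted p = 0.0715) did not pass. Without *w1118* hypoxia replicate 1 *zetaTry* passed (1.88, SE 0.46, adjusted p = 0.00591). The 9 trypsins lie in 1 cluster, and of 11 other genes measured within or next to it, 0 were called between *ERR* and *w1118* in either condition, with differences of -0.89 to 0.37.

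*thetaTry* in normoxia read 7.99, 7.83 and 8.04 in *w1118*, 9.43, 8.26 and 7.61 in *sima*, 9.68, 10.61 and 10.77 in *ERR*, and 8.73, 10.25 and 9.92 in the *double* mutant. In hypoxia it read 8.66, 7.54, 7.42, 7.07 and 7.88 in *w1118*, 8.47, 7.62 and 8.72 in *sima*, 10.05, 10.07 and 10.48 in *ERR*, and 9.49, 8.07 and 9.53 in the *double* mutant. The *ERR* arrays were above the *w1118* arrays in both conditions, with a difference of 2.40 in normoxia (SE 0.49, adjusted p = 0.00495). The normoxic call was lost without any 1 of the 3 *w1118* arrays, without *ERR* replicate 2 and without *ERR* replicate 3 (adjusted p from 0.0186 to 0.0354). *epsilonTry* in hypoxia read 12.61, 12.12, 12.13, 11.97 and 11.97 in *w1118*, 12.45, 12.04 and 12.41 in *sima*, 13.35, 13.30 and 13.35 in *ERR*, and 12.26, 11.46 and 12.60 in the *double* mutant. In normoxia it read 12.91, 12.54 and 12.81, then 13.35, 13.11 and 12.73, then 13.10, 13.20 and 13.23, then 12.69, 13.25 and 13.06 in the same order of genotypes. The *ERR* range there lay above that of *w1118* and inside those of *sima* and the *double* mutant, which both overlapped with *w1118*.

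*lambdaTry* and *kappaTry*, neighbours in the cluster, were low in *w1118* apart from hypoxia replicate 1. In *w1118* *lambdaTry* ranged from 3.52 to 3.73 in normoxia and from 3.49 to 4.26 in hypoxia on 4 of the 5 arrays, with 7.14 on replicate 1. *kappaTry* ranged from 4.14 to 4.65 in normoxia and from 3.97 to 4.93 on the same 4 arrays, with 7.17 on replicate 1. On the *sima* arrays *lambdaTry* was 5.18 to 7.61 and *kappaTry* 6.06 to 6.80. They were 5.36 to 8.73 and 6.10 to 7.99 on the *ERR* arrays, and 3.27 to 7.57 and 4.82 to 7.18 on those of the *double* mutant. Without *w1118* hypoxia replicate 1, the difference between *ERR* and *w1118* in hypoxia was 4.00 for *lambdaTry* (SE 0.69, adjusted p = 4.34e-04) and 3.28 for *kappaTry* (SE 0.42, adjusted p = 2.79e-05). Between *sima* and *w1118* in hypoxia it was then 2.97 for *lambdaTry* (SE 0.69, adjusted p = 0.00547) and 2.15 for *kappaTry* (SE 0.42, adjusted p = 0.00139), where neither passed with all arrays (2.33 and 1.59, adjusted p = 0.0627 and 0.0733).

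**Figure D3:**
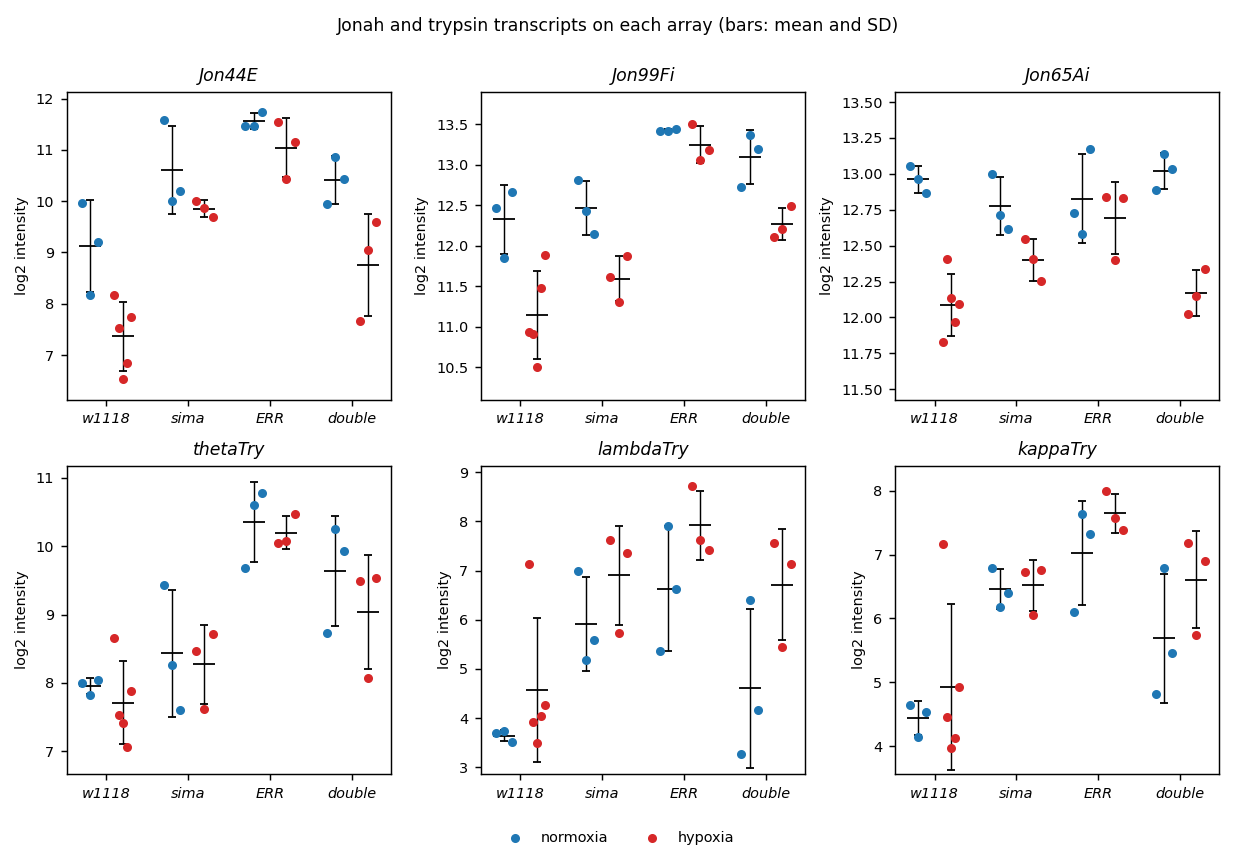
Log2 intensity of 3 Jonah genes (*Jon44E*, *Jon99Fi*, *Jon65Ai*) and 3 trypsin genes (*thetaTry*, *lambdaTry*, *kappaTry*) on each array, by genotype and oxygen level; points are arrays, and bars give the mean and SD. *Jon65Ai* is lower on every hypoxic array than on every normoxic array of *w1118*, of *sima* and of the *double* mutant, and 1 array of *w1118* in hypoxia (replicate 1) lies at 7.14 for *lambdaTry* and 7.17 for *kappaTry*.

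Other comparisons of genotypes called few members. In normoxia 3 members were higher in *ERR* than in *w1118* (*LysP*, *thetaTry* and *Jon44E*) and 1 lower (*LysX*), where 1.48% of probe sets were higher and 0.805% lower. The total of 4 fell to 2 without *w1118* normoxia replicate 1, 1 without replicate 2, 1 without replicate 3, 1 without *ERR* normoxia replicate 2 and 2 without replicate 3. In *sima* in normoxia, 1 member was higher (*LysP*) and 0 lower, where 0.943% and 0.522% of probe sets were. In *sima* in hypoxia, 3 were higher (*LysP*, *Jon44E* and *LysX*) and 0 lower, where 2.44% and 2.12% were, and 5 were higher without *w1118* hypoxia replicate 1. *iotaTry* was lower in *sima* on every array, by -1.30, and missed the threshold (adjusted p = 0.0113). In the *double* mutant in normoxia, 0 were higher and 1 lower (*LysX*), where 0.495% and 0.4% of probe sets were. In the *double* mutant in hypoxia, 1 was higher (*Jon99Fi*) and 2 lower (*LysX* and *Jon25Bii*), where 3.01% and 3.04% were. That total of 3 was 6 without *w1118* hypoxia replicate 1, with *lambdaTry* (2.79), *kappaTry* (2.24) and *etaTry* (0.73) also higher, and 1 without *double* hypoxia replicate 1.

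*Jon25Bii* read 12.57, 11.74, 11.50, 12.16 and 12.22 in hypoxic *w1118*, 11.77, 11.14 and 12.14 in *sima*, 12.04, 12.21 and 12.56 in *ERR*, and 10.56, 10.26 and 11.58 in the *double* mutant. In normoxia it read 12.30, 12.08 and 12.36 in *w1118*, 12.47, 12.43 and 12.03 in *sima*, 11.85, 11.99 and 12.46 in *ERR*, and 11.70, 12.20 and 12.05 in the *double* mutant. The *double* mutant in hypoxia was the low group, though 1 of its arrays overlapped with *w1118*. Its difference from *w1118* there was -1.24 (SE 0.27, adjusted p = 0.00372), and the call was lost without *double* replicate 1 (-1.12, adjusted p = 0.0342) or replicate 2 (-0.97, adjusted p = 0.0306).

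Hypoxia itself lowered few members at the threshold and raised none. In *w1118*, *Jon65Ai* and *Jon99Fi* fell, so that 0 of the 25 were higher and 2 lower, where 3.58% of probe sets were higher and 1.57% lower. All 13 Jonah genes had a negative change in *w1118*, with a median of -0.62 against 0.06 for all probe sets, and *Jon74E* turned positive once arrays were centred on their medians. The trypsins were mixed, 6 positive and 3 negative with a median of 0.14, and 4 of them (*kappaTry*, *zetaTry*, *betaTry* and *iotaTry*) turned negative without replicate 1. Without that array 3 members were lower, *Jon44E* in addition (-1.96, SE 0.46, adjusted p = 0.00676). In the *double* mutant 0 members were higher and 2 lower (*Jon65Ai* and *Jon65Aii*), where 2.78% and 1.94% of probe sets were. All 13 Jonah genes were again negative, also with centred arrays, with a median of -0.99 against -0.00429 for all probe sets. That total of 2 became 1 without *double* normoxia replicate 2 or replicate 3, 0 without *double* hypoxia replicate 1 and 5 without *double* hypoxia replicate 3.

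In *sima* mutants 0 members were higher and 0 lower in hypoxia, where 1.85% and 1.74% of probe sets were, and 4 of 25 had an unadjusted p under 0.05 (0 called by SAM). The Jonah median was -0.35, with 12 of 13 negative. In *ERR* mutants 0 were higher and 0 lower, where 0.197% and 0.192% of probe sets were, and 1 of 25 had an unadjusted p under 0.05 (0 called by SAM). The Jonah median was -0.20, with 11 of 13 negative. The share of all probe sets with an unadjusted p under 0.05 was not counted, for these comparisons or those below.

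**Figure D4:**
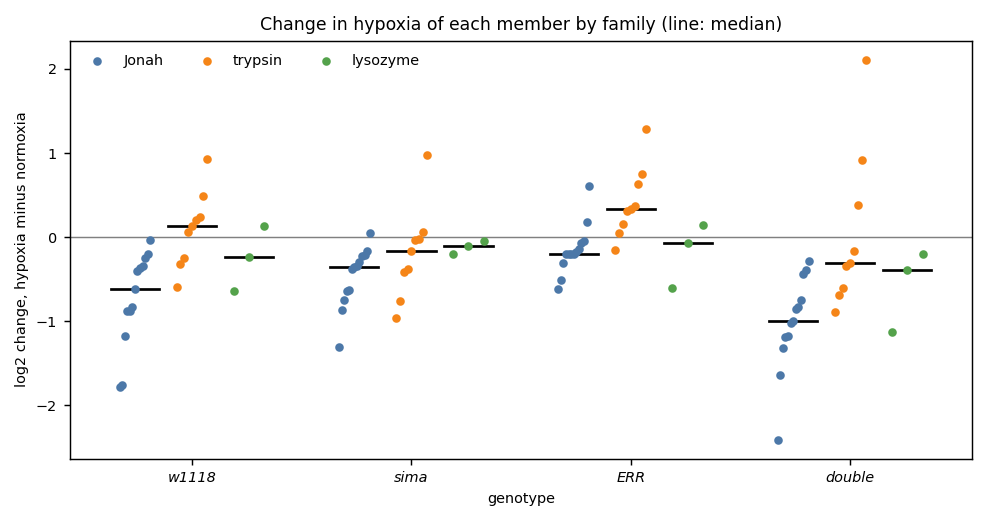
Log2 change in hypoxia of each member in the 4 genotypes; points are genes coloured by family, and black lines give the median of a family. The Jonah medians are -0.62 in *w1118*, -0.35 in *sima*, -0.20 in *ERR* and -0.99 in the *double* mutant.

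*Jon65Ai* showed the fall most plainly. In *w1118* it read 13.05, 12.96 and 12.87 in normoxia and 11.83, 12.41, 12.13, 11.96 and 12.09 in hypoxia. In the *double* mutant it read 12.89, 13.14 and 13.03 in normoxia and 12.02, 12.15 and 12.34 in hypoxia. In neither genotype did the oxygen levels overlap, and the changes were -0.88 (SE 0.14, adjusted p = 2.49e-04) and -0.85 (SE 0.16, adjusted p = 0.00132). In *sima* it went from 13.00, 12.71 and 12.61 to 12.54, 12.41 and 12.25, and in *ERR* from 12.73, 12.58 and 13.17 to 12.84, 12.40 and 12.83. The *sima* ranges did not overlap either (-0.38, adjusted p = 0.191), and the *ERR* ranges did.

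*Jon99Fi*, whose values are given above, fell in *w1118* by 1.18 on the log2 scale (SE 0.25, adjusted p = 0.00237), with 1 hypoxic array inside the normoxic range. With arrays centred on their median the change was -1.03 and no longer passed (adjusted p = 0.0136), and it was also lost without *w1118* normoxia replicate 1 (adjusted p = 0.0190) or replicate 3 (adjusted p = 0.0272). *Jon65Aii* in the *double* mutant went from 12.24, 12.50 and 12.46 to 10.86, 11.71 and 11.66 (-0.99, SE 0.23, adjusted p = 0.00669). It read 12.70, 12.46 and 12.58 in normoxia and 12.31, 12.49, 11.91, 12.02 and 12.34 in hypoxia in *w1118*, where the ranges overlapped. In *sima* it read 13.02, 12.66 and 12.49, then 12.61, 12.57 and 12.31, and in *ERR* 12.05, 11.56 and 12.28, then 11.83, 11.33 and 12.13. The larger Jonah changes of *Jon44E* (-1.75, adjusted p = 0.0123) and *Jon66Cii* (-1.78, adjusted p = 0.0461) in *w1118* went with larger standard errors (0.46 and 0.58) and did not pass.

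The difference between the hypoxic change of a mutant and that of *w1118* was tested as an interaction, and no member passed. For *sima*, 0 were higher and 0 lower, where 0.0799% and 0.234% of probe sets were, and 2 members had an unadjusted p under 0.05. For *ERR*, 0 and 0, where 0.0107% and 0.0959% were, and 5 members had an unadjusted p under 0.05. All 13 Jonah genes had a positive *ERR* interaction, with a median of 0.57 against -0.02 for all probe sets, and this sign held for each of them with centred arrays and without *w1118* hypoxia replicate 1. Since the Jonah genes vary together, these signs are not independent, and they were not tested as a set. *Jon65Ai* had the smallest p (0.74, SE 0.22, adjusted p = 0.175), so a weaker fall in *ERR* than in *w1118* was not shown for any single gene. For the *double* mutant, 0 and 0, where 0.24% of probe sets were higher and 0.24% lower, and 1 member had an unadjusted p under 0.05. SAM gives no test of the interaction.

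The *double* mutant was set against each single mutant in comparisons added after the values had been seen. Against *sima* in normoxia, 0 members were higher and 2 lower, where 0.394% and 0.618% of probe sets were. They were *LysX* (-5.39, SE 0.49, 41.9-fold, adjusted p = 6.16e-07) and *LysP* (-2.68, SE 0.24, 6.42-fold, adjusted p = 3.53e-07). Against *sima* in hypoxia, 0 were higher and 3 lower, where 0.48% and 0.559% were: *LysX* (-5.67, SE 0.49), *LysP* (-2.69, SE 0.24) and *Jon65Aiii* (-0.68, SE 0.11, adjusted p = 0.00102). The raised *LysP* of *sima* was not seen in the *double* mutant, where *LysP* differed from *w1118* by 0.18 in normoxia and -0.16 in hypoxia (SE 0.24 and 0.21). Effects of the alleles and of the chromosome that carries them cannot be told apart here either. *Jon65Aiii* read 13.67, 13.58 and 13.65 in *sima* and 12.70, 12.96 and 13.19 in the *double* mutant in hypoxia, 13.36, 13.16, 13.15, 13.17 and 13.35 in *w1118*, and 13.19, 13.21 and 13.41 in *ERR*. In normoxia it read 13.47, 13.38 and 13.62 in *w1118*, 13.78, 13.94 and 13.83 in *sima*, 13.27, 13.32 and 13.43 in *ERR*, and 13.15, 13.43 and 13.44 in the *double* mutant, a narrow range.

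Against *ERR* in normoxia, 0 members were higher and 0 lower in the *double* mutant, where 0.139% and 0.107% of probe sets were, and 4 members had an unadjusted p under 0.05 (0 called by SAM). Against *ERR* in hypoxia, 0 were higher and 3 lower, where 1.57% and 0.378% were: *epsilonTry* (-1.23, SE 0.23, adjusted p = 0.00201), *Jon25Bii* (-1.47, SE 0.31, adjusted p = 0.00552) and *Jon44E* (-2.28, SE 0.51, adjusted p = 0.00983). The *Jon44E* call was lost with centred arrays (-2.27, adjusted p = 0.0109), by SAM and without any 1 array of the 2 groups other than *double* replicate 3. All 13 Jonah genes and all 9 trypsins had a negative difference there, with medians of -0.98 and -1.04 against -0.01 for all probe sets. On 18 of the 25 members every *double* array was below every *ERR* array. The share of all probe sets separated in this way was not counted, and most proteases vary together within groups. The 18 therefore cannot be read as a result about the members. The total of 3 was 0 without *ERR* hypoxia replicate 3 or *double* hypoxia replicate 2, 1 without *ERR* hypoxia replicate 2 or *double* hypoxia replicate 1, and 6 without *double* hypoxia replicate 3. *LysX* was low in both genotypes and differed by 0.82 in normoxia and 0.50 in hypoxia (adjusted p = 0.455 and 0.742).

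Other genes of digestion were compared in the same fit. Of 26 other digestive enzymes, 12 were higher and 0 lower in *ERR* than in *w1118* in hypoxia, and 5 and 0 in normoxia. In hypoxia the median was 1.17, and the smallest p values were those of the mannosidase *LManIV* (4.57, SE 0.54) and the lipases *CG6295* (3.64, SE 0.45), *CG6283* (2.00, SE 0.29) and *CG6271* (3.70, SE 0.61). In normoxia the median was 1.36 and the genes were led by the maltase *Mal-A1* (2.60, SE 0.39) and the related *Mal-B1* (1.26, SE 0.21), followed by the glucosidase *tobi* (2.03) and *CG6295* (2.56). Of 18 other serine proteases, 5 were higher and 0 lower in hypoxia with a median of 0.41, among them *CG17571* (2.96, SE 0.49), *CG18179* (3.08, SE 0.63) *CG10472* (2.23, SE 0.48) and *Try29F* (1.85, SE 0.40), and *CG17571* was also higher in normoxia (2.76, SE 0.55). In *sima* 3 digestive enzymes were higher than in *w1118* in hypoxia (*Bace*, 1.80, *CG6283*, 1.33, and *CG8562*, 1.55) and 0 in normoxia, with 0 lower in each. Those higher in the *double* mutant were 3 in hypoxia (*CG6295*, 2.93, *CG6283*, 1.49, and *CG6271*, 2.78) and 2 in normoxia (*CG6295*, 2.83, and *CG6283*, 1.70), again with 0 lower. Of the serine proteases, *CG10477* in normoxia was higher in *sima* than in *w1118* (1.22) and lower in the *double* mutant than in *sima* (-1.72), and *CG5246* was higher in the *double* mutant in hypoxia (1.89), as was the lysozyme-like *CG16799* (0.68). *LManIV* was lower in the *double* mutant than in *ERR* in hypoxia (-3.43).

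In *w1118* in hypoxia, 4 of the 26 enzymes changed: *Mal-B2* (1.58, SE 0.21), *tobi* (1.74, SE 0.33) and *Mal-A1* (1.53, SE 0.35) rose and *Mal-A5* fell (-1.10, SE 0.16). The lysozyme-like *CG8492* also rose (1.93, SE 0.45). *Bace* (1.69) and *Mal-B2* (1.18) rose and *Mal-A5* fell (-1.47) in the *double* mutant. Of 9 transcripts of the midgut epithelium, *GATAe*, a transcription factor of the endoderm, rose in *w1118* (0.72, SE 0.11) and in the *double* mutant (0.67, SE 0.12), and 0 fell in any of the 4 genotypes. In normoxia *GATAe* was also higher in *sima* than in *w1118* (0.59). In *ERR* against *w1118*, *Cht9*, a chitinase, was higher in hypoxia (3.47, SE 0.46) and in normoxia (2.33, SE 0.51), and *Npc2f* in hypoxia (1.10, SE 0.26). *Cht9* was higher in hypoxia in *sima* (2.89, SE 0.46) and in the *double* mutant (2.70, SE 0.46) too. The mean of the midgut epithelium list ran from 6.75 to 7.76 in *w1118* and from 7.80 to 8.02 in *ERR* in hypoxia, and from 6.87 to 7.34 and from 7.73 to 7.90 in normoxia. It ran from 7.59 to 7.90 in *sima* and from 7.64 to 7.90 in the *double* mutant in hypoxia. The median difference of its members between *ERR* and *w1118* was 0.18 in hypoxia and 0.36 in normoxia. What part the midgut list has in the differences of the proteases was not tested.

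Markers of other tissues and of stage also differed along with the members. Of 8 muscle transcripts, 1 was higher in *ERR* than in *w1118* in hypoxia (*Mlc2*, 2.76, SE 0.56) and 2 in normoxia (*Mlc2* and *bt*). The mean of the muscle list in hypoxia was 10.75 to 11.27 in *ERR* and 9.30 to 10.87 in *w1118*. In normoxia the muscle mean was 10.91 to 11.72 in *ERR* and 9.37 to 9.86 in *w1118*. The mean of the ecdysone response list was 6.08 to 6.20 in *ERR* in hypoxia, 5.63 to 6.11 in *sima*, 5.59 to 6.28 in the *double* mutant and 6.07 to 7.39 in *w1118*. In normoxia it was 5.95 to 6.94 in *ERR*, below the 7.10 to 7.47 of *w1118*. Of its 15 transcripts, 0 were called between *ERR* and *w1118* in either condition. Against *w1118* in hypoxia, *br* (-1.37), *ImpL1* (-0.94) and *Hr39* (-0.89) were lower and *ftz-f1* (1.47) higher in *sima*, and *br* (-1.33), *ImpL1* (-0.87) and *Hr39* (-0.84) were lower in the *double* mutant. Between oxygen levels 1 rose and 1 fell in *w1118* (*ImpL1*, 1.06, and *MsrA*, -1.66), 1 rose and 4 fell in *sima*, and 1 rose and 3 fell in the *double* mutant (*ftz-f1*, 1.46, *br*, -1.97, *Hr39*, -1.58, and *MsrA*, -1.47). Of 7 enteroendocrine peptides, *AstC* and *Dh31* were higher in *sima* than in *w1118* in normoxia (1.21 and 0.82) and in hypoxia (0.86 and 0.86), *AstC* was higher in *ERR* in normoxia (0.94), and *ITP* was lower in *ERR* in hypoxia (-0.81). Of 10 hemocyte transcripts, *lz* was lower than in *w1118* in hypoxia in *sima* (-0.59), *ERR* (-0.65) and the *double* mutant (-0.71), while *PPO3* was higher in the *double* mutant in normoxia (2.07) and in hypoxia (1.84). The list did not follow *lz*. Its median differences in hypoxia were -0.20, 0.26 and -0.08 in the same order. Its mean in normoxia was 6.78 to 6.95 in *w1118*, 7.14 to 7.40 in *sima*, 7.24 to 7.83 in *ERR* and 7.32 to 7.67 in the *double* mutant. *srp* is in this list and in that of the midgut epithelium. None of the 10 salivary gland glue, 5 fat body and 9 testis transcripts was called by limma between *ERR* and *w1118*. List means did differ in normoxia. The glue mean was 12.58 to 12.80 in *ERR* and 11.87 to 12.08 in *w1118*. The testis mean was 9.26 to 9.67 in *w1118*, 8.15 to 9.06 in *ERR*, 7.74 to 8.31 in *sima* and 7.41 to 8.75 in the *double* mutant. The fat body ranges of *ERR* and *w1118* overlapped, as did those of each of these lists in hypoxia. The testis mean ran from 6.76 to 9.62 within hypoxic *w1118*. No transcript of these lists is at 0, since RMA values are never 0. The part of these differences in those of the proteases and lysozymes was not tested.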

How the data were processed

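Transcripts of whole larvae were measured on 26 Affymetrix *Drosophila* Genome arrays of 8 groups, at least 10 larvae per replicate. Normalization was done by the authors, using RMA. What they deposited are linear intensities, from 3.95 to 23239.92, with array medians of 35.4 to 45.4. Which release of RMA was used, and whether the 26 arrays were processed jointly, is not given in the sources used here. RMA draws the values of an array towards a common distribution, so a change shared by most transcripts would be removed.

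The log2 of each deposited intensity was taken, and tests ran on 18769 probe sets, without the 183 controls. Array annotation paired 13647 probe sets with 1 gene, 402 with several and 4903 with none. A gene was represented by its brightest probe set on average, and each member had 1. All 25 members were matched to RefSeq (Release 6 plus ISO1 MT), which was used for names and for the order of neighbours. No sequence was printed, since none was given. One limma model (limma 3.58.1, R 4.3.3) was fitted to 8 group means, with Benjamini-Hochberg adjustment over all probe sets. A call needs an adjusted p under 0.01 and a change of at least 1.5-fold. The study used SAM, with a laxer false discovery rate for hypoxia in *dERR* mutants than for its other comparisons, and a SAM test was run as an alternative with 20 or 56 permutations. The scripts were tested on simulated data. Other alternatives were centring of arrays, an adjusted p under 0.05, a filter on dim probe sets, the replicate number as a block, a fit of the compared groups alone, averaging of close arrays and leaving out each array. The labels give no batch, and the number of arrays limits the precision.

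Members and lists were chosen with earlier results of these data known. Values on every array are given for the called members with the 3 smallest p values in a comparison and for lysozymes above the median level; *lambdaTry* and *kappaTry* were added after their values had been seen. Genes of other lists are named where called in a comparison that also calls members, at most 4 for a list and comparison, by p. The lists cover other digestive serine proteases, lysozyme-like genes, digestive enzymes, midgut epithelium, enteroendocrine peptides, salivary gland glue, ecdysone response, fat body, muscle, testis and hemocytes.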

Additional observations from a re-analysis of the deposited data

Results flagged for a closer look

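In the group of 5 arrays of *w1118* in hypoxia, replicate 1 lay far from the other 4 for 5 of the 25 members tested, where chance flags about 1 group in 20. *LysX* was low on it (8.87 against 10.81 to 11.46). *lambdaTry* (7.14), *zetaTry* (8.79, against 6.30 to 6.92), *epsilonTry* (12.61, against 11.97 to 12.13) and *iotaTry* (8.92, against 7.67 to 7.99) were high on it. The same array had the highest mean of the muscle and midgut epithelium lists and the lowest mean of the ecdysone response list in its group.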

How the results depend on the processing

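Of 257 recomputed counts of called members, 203 stayed within 1.5 times the reported count and 54 did not. Of 371 recomputed values of named members, 301 kept their call and 70 kept their direction but missed the threshold, and 0 reversed. Some of these outcomes were fixed in advance. The totals include a run with the dimmest probe set of each gene, which repeats the reported fit because each member had 1 probe set. At an adjusted p under 0.05 no reported call can be lost. *LysX* in *ERR* against *w1118* and *LysP* in *sima* against *w1118* in both conditions, and *Jon44E* and *Jon99Fi* in *ERR* against *w1118* in hypoxia, kept their calls under every alternative run. With arrays centred on their median, 1 member was called in *w1118* between oxygen levels in place of 2. At an adjusted p under 0.05 the counts were 4 between oxygen levels in *w1118*, 1 in *sima* and 7 in the *double* mutant, 8 for *ERR* against *w1118* in normoxia, 5 for *sima* and 8 for the *double* mutant against *w1118* in hypoxia, 1 and 10 for the *double* mutant against *ERR* in normoxia and hypoxia, and 5 against *sima* in hypoxia. With 9306 probe sets whose highest group mean was at least log2 6, which kept all 25 members, 4 were called between oxygen levels in the *double* mutant, 5 in it against *w1118* in hypoxia and 6 against *ERR* in hypoxia. *LysP* passed this filter only through its mean in *sima* in normoxia (6.02), so the filter is no check on its calls in *sima*. When only the compared groups were fitted, so that fewer arrays set the spread, the counts were 1 between oxygen levels in *w1118* and 0 in the *double* mutant, 6 for *sima* and 1 for *ERR* against *w1118* in normoxia, 6 for *ERR* and 0 for the *double* mutant against *w1118* in hypoxia, and 0 for the *double* mutant against *ERR* in hypoxia. SAM called 5 between oxygen levels in *w1118*, 7 for *sima*, 1 for *ERR* and 3 for the *double* mutant against *w1118* in normoxia, and 1 for the *double* mutant against *ERR* in hypoxia. Averaging *w1118* hypoxia replicates 2 and 3, and 4 and 5, the closest pairs of arrays of that group in earlier results of these data, left 7 for *ERR* against *w1118* in hypoxia. Apart from centring, the share of all probe sets called was not counted under these alternatives. A move of a member count cannot be told from a general rise or fall in calls. Where not stated, the cause of these moves was not tested.

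With 1 array left out at a time, the counts ran from 1 to 3 between oxygen levels in *w1118* and 0 to 5 in the *double* mutant, 1 to 3 for *ERR* against *w1118* in normoxia, 7 to 16 for *ERR*, 2 to 5 for *sima* and 1 to 6 for the *double* mutant against *w1118* in hypoxia, 0 to 1 and 0 to 6 for the *double* mutant against *ERR* in normoxia and hypoxia, and 2 to 4 against *sima* in hypoxia. The single call of the *double* mutant against *ERR* in normoxia appeared without *ERR* normoxia replicate 3. The replicate numbers do not pair the arrays: the deviations of arrays with the same number had a median correlation of 0.0187 over 84 pairs of arrays from different groups, with 30 over 0.1. For pairs with different numbers the median was 0.0076 over 210 pairs, with 75 over 0.1. With the replicate number as a block, 1 member was called between oxygen levels in the *double* mutant and 9 for *ERR* against *w1118* in hypoxia.

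Centring shifted the median over all probe sets from 0.06 to 0.21 between oxygen levels in *w1118*, from 0.07 to 0.22 for *sima*, 0.02 to 0.12 for *ERR* and 0.06 to 0.21 for the *double* mutant against *w1118* in normoxia, and the interactions from -0.06 to -0.20, -0.02 to -0.15 and -0.08 to -0.23 in the same order. All calls higher and lower went from 672 and 294 to 950 and 120 between oxygen levels in *w1118*, from 37 and 36 to 23 and 3 in *ERR*, from 177 and 98 to 227 and 72 for *sima*, 278 and 151 to 292 and 82 for *ERR* and 93 and 75 to 100 and 50 for the *double* mutant against *w1118* in normoxia, and from 15 and 44 to 5 and 43 and from 45 and 45 to 4 and 40 for the interactions of *sima* and of the *double* mutant.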
